A study of Homo sapiens with 24 samples.

Results

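The 10 genes ATM, ATR, ATRIP, ETAA1, CHEK1, CHEK2, RAD1, HUS1, TIPIN and CDC25C encode kinases, activators and targets of the DNA damage checkpoint. They were taken by symbol from a list chosen with earlier results of these data known. They were 10 of 9560 genes with an m6A peak in at least 1 of the 4 deposited peak lists, and each was represented by 1 RefSeq transcript without a copy number. N6-methyladenosine (m6A) is a methylated adenosine that occurs within messenger RNAs. Polyadenylated RNA was pulled down with an m6A antibody (IP), and both the IP and the RNA before pull-down (input) were sequenced. U2OS cells, an established human line derived from an osteosarcoma, were used as WT or as METTL3 KO. The latter is a knockout of METTL3, the enzyme that deposits most of the m6A on nuclear messenger RNA precursors. The sources used here do not say whether the KO line was 1 clone or several. All cells, controls included, were grown with 10 µM BrdU, a thymidine analogue. The plus UV groups received UVC at a dose given as 50 J, the minus UV groups did not, and RNA was collected after an incubation of 2 min.

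Genotype, UV and kind of library set apart 8 groups among the 24 samples, with 3 IP and 3 input libraries for WT minus UV, 4 and 4 for WT plus UV, 3 and 3 for KO minus UV, and 2 and 2 for KO plus UV. Each condition had 1 deposited list for all of its replicates, with 13989, 15465, 13852 and 9471 peaks in that order. A peak is an interval of bases along a transcript, counted here from 1 at the first base with both ends included. The lists hold no score, read count or depth, so there is no spread between replicates and no test between conditions, and every comparison below is a description of these lists. From a list, less of the mark, less of the transcript and fewer reads cannot be told apart. METTL3 itself carried 2, 2, 1 and 2 peaks in the same order, and a peak list gives no level with which the knockout could be checked. Of the markers looked up, 4 of 8 osteoblast lineage genes, 0 of 4 blood genes, 2 of 3 epithelial genes (EPCAM and KRT8) and 1 of 3 neuronal genes (RBFOX3) carried a peak in any list.

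The DNA damage checkpoint halts the cell cycle while DNA is repaired. ATM responds to double-strand breaks and phosphorylates CHEK2, whereas ATR, bound to its partner ATRIP on RPA-coated single-stranded DNA, responds to stalled forks and UV lesions and phosphorylates CHEK1. ATR is switched on by TOPBP1, which acts with the RAD9A-RAD1-HUS1 clamp loaded by RAD17, or separately by ETAA1. TIPIN, with TIMELESS and CLSPN, couples the fork to ATR, and CHEK1 and CHEK2 restrain CDC25 phosphatases such as CDC25C, which activate CDK1 at entry into mitosis.

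Sequence within reach of the peaks was limited to the first bases of 3 annotated starts, since transcript sequences were not used here and RefSeq start windows end 50 bases after the start (GRCh38.p14; 9 of the 10 genes have an entry). A peak that began within the first 50 bases was found on 3 genes, TIPIN, CHEK2 and HUS1, and 2 of them have entries. Bases 21 to 50 of each entry are shown because the TIPIN peak covered bases 1 to 190 and the CHEK2 peak began at base 38. The capitals mark GGAC, the core of the favoured m6A motif. The entries do not say which start the listed TIPIN transcript uses, so both are given. For CHEK2 the entry starts at 28741820, while the gene reaches 28741834. Whether the listed CHEK2 transcript starts at the entry is thus not known, and bases counted from the entry may be offset from those of the peak.
TIPIN, distal start, minus strand, chr15:66386668-66386697: gaggcaagcaggtGGACccagctgagaaga
TIPIN, proximal start, minus strand, chr15:66356636-66356665: cgctgtgtcccgtgttttctgcgtgaggtg
CHEK2, minus strand, chr22:28741771-28741800: ggagagtgtgcggctccaggtgggctcacg
GGAC stood once in the first 50 bases after the distal TIPIN start, at bases 34 to 37, and 0 times after the proximal start and the CHEK2 start. Its other strand, GTCC, stood 0, 2 and 0 times in the same order. Of 35116 such windows in the table, 18.9% held GGAC on the transcript strand, 17.6% held GTCC and 33.5% held either.

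Among the kinases at the top of the pathway, ATM (chromosome 11, 108223067 to 108369102, GRCh38) carried a peak in every list but WT plus UV. In cells without UV the peak lay at bases 197 to 340 of the transcript (WT) and 196 to 355 (KO), and in irradiated KO cells at 211 to 358. These 3 peaks shared between 130 and 145 bases in pairs, and their centres were 7 to 16 bases apart. No other ATM peak was listed, although the ATM message is long. The WT plus UV list, from which ATM was missing, had the most IP libraries and the most peaks. The depth of reads over ATM is unknown in every list, and why ATM was missing was not tested. Absence from WT plus UV with presence in the other 3 lists was found for 118 of 9560 genes (1.23%). ATM was also the single member with a peak in KO plus UV. The genomic span of ATM overlaps C11orf65, on which no peak was listed.

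ATR (chromosome 3, 142449235 to 142578733) carried 1 peak in KO minus UV, at bases 931 to 1070, and 0 in the other 3 lists. ETAA1 (chromosome 2, 67397333 to 67412089), which activates ATR independently of TOPBP1, had the same pattern, with 1 KO minus UV peak at bases 951 to 1090. Both peaks were 140 bases wide, at percentile 19.4 of the widths in that list. KO minus UV as the single list was the pattern of 405 genes (4.24%). ATRIP (chromosome 3, 48446737 to 48467645), the partner that brings ATR to RPA, had another pattern. It was listed in WT cells regardless of UV and in KO minus UV.

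The ATRIP peak was the widest of the set in each list that held it. In WT cells it ran from base 1447 to 1700 without UV and from 1449 to 1720 with UV, from 1447 to 1670 in KO minus UV. The starts differed by at most 2 bases, whereas the ends spread over 50 bases. Its widths of 254, 272 and 224 bases lay at percentiles 83.3, 86.3 and 75.8 of their lists. This pattern of presence was that of 1288 genes (13.5%), the most after the pattern of all 4 lists. The span of ATRIP overlaps TREX1 and the ATRIP-TREX1 readthrough gene, and no peak was listed under either name.

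In the clamp, RAD1 (chromosome 5, 34905260 to 34915504), a ring subunit, carried 2 peaks in each WT list and 0 in each KO list. The first lay at bases 91 to 190 with and without UV, with the same first and last base. The second lay at 1561 to 1679 without UV and at 1561 to 1681 with UV. The positions thus differed by at most 2 bases between the lists with and without UV. Both were narrow: the first, of 100 bases, had the smallest width in the lists, and the second spanned 119 and 121 bases. Of all 21 member peaks, 11 had a start that ended in the digit 1. How peak edges were set is not given, so equal edges do not show how precisely the mark was placed. HUS1 (chromosome 7, 47963288 to 47979615), the other ring subunit among the 10, had 1 peak in WT plus UV, at bases 47 to 150 and 104 bases wide, and 0 in the other lists. RAD9A, the third subunit, had 0 peaks in all 4 lists.

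TIPIN (chromosome 15, 66336191 to 66386717), the fork protection subunit, carried 0 peaks without UV and 1 with UV in WT cells, and 2 without UV and 0 with UV in KO cells. The WT plus UV peak, at bases 731 to 842, overlapped the second KO minus UV peak, at 667 to 838, by 108 bases, or 96.4% of the former and 62.8% of the latter. The first KO minus UV peak, at bases 1 to 190, began at the first base of the transcript and overlapped no peak of another list. TIPIN and RAD1 were the 2 members with 2 peaks in a list, and none of the 10 had more. TIPIN thus gained a peak with UV in WT cells and lost both with UV in KO cells, a difference between genotypes that was not tested. The WT peak was 112 bases wide, and with peaks of at least 120 bases TIPIN had 0 peaks in WT cells and 2 and 0 in KO cells. Its pattern, WT plus UV with KO minus UV, was that of 365 genes (3.82%).

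The effector kinases CHEK1 and CHEK2, like RAD1, had peaks in WT cells with and without UV and none in KO cells. CHEK1 (chromosome 11, 125625136 to 125681124) carried a peak at bases 834 to 1002 without UV and at 836 to 1001 with UV, with centres 0.5 bases apart. CHEK2 (chromosome 22, 28687742 to 28741834) carried a peak at bases 38 to 223 without UV and at 111 to 213 with UV. The CHEK1 interval was nearly the same with and without UV. The CHEK2 interval with UV lay wholly inside the one without, covered 55.4% of it and started 73 bases further along. CHEK2 has pseudogene copies elsewhere in the genome, and the sources used here do not say how reads that match several places were treated. This WT pattern was found for 3 of the 10 members and 681 of 9560 genes (7.12%).

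CDC25C (chromosome 5, 138285265 to 138338355), the phosphatase downstream of both effector kinases, had 1 peak in WT plus UV, at bases 1741 to 1915 and 175 bases wide, and 0 in the other lists. It had the furthest start of all 21 member peaks. HUS1 and CDC25C shared the pattern of WT plus UV alone with 666 genes in all (6.97%). The span of CDC25C overlaps FAM53C, which carried 5, 4, 5 and 4 peaks in WT without and with UV and in KO without and with UV. The part of FAM53C in the CDC25C peak was not tested.

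**Figure D1:**
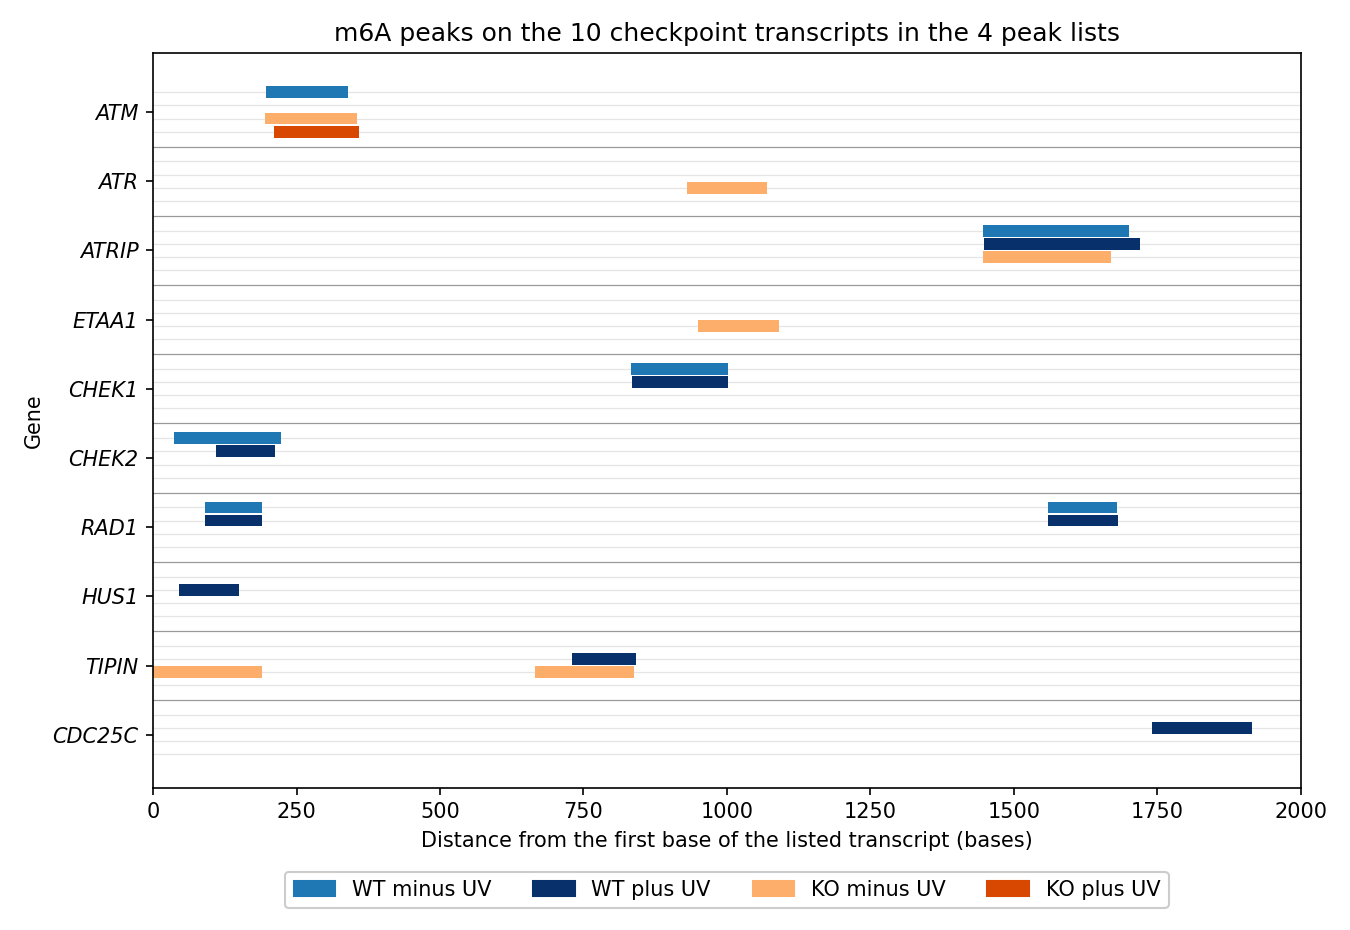
Position of every listed m6A peak on the 10 transcripts, as bars from the first to the last base of the peak, against the distance in bases from the first base of the transcript, with 1 line per peak list and gene. The bars of ATRIP, CHEK1 and RAD1 start at nearly the same base wherever they occur, ATM has a bar in every list but WT plus UV, and KO plus UV has a single bar, on ATM.

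Setting irradiated WT cells against unirradiated ones asked which of these transcripts carried a peak within minutes of irradiation. A peak was listed for 5 of the 10 genes without UV and for 7 with UV, against 74.6% and 83.4% of all 9560 genes. HUS1, TIPIN and CDC25C were gained with UV, 3 of 10 against 17.4% of all genes, and ATM was lost, 1 of 10 against 8.61%. CHEK1, CHEK2, ATRIP and RAD1 had peaks in both lists. Of the 8 member peaks in WT plus UV, 3 overlapped no WT minus UV peak, beside 30.0% of all peaks in that list. In the other direction it was 1 of 6, beside 22.4%. The count with UV depended on narrow peaks: with peaks of at least 120 bases alone, 4 members had a peak without UV and 4 with UV, against 72.6% and 82.5% of the 9124 genes with such a peak. HUS1 and TIPIN then had none in WT, CHEK2 had one without UV alone, and RAD1 had one with UV alone. The lists came from 3 IP libraries without UV and 4 with UV, and what this contributed was not tested.

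In METTL3 KO cells, where the same was asked, the number of members with a peak was 5 of 10 without UV and 1 of 10 with UV, against 72.9% and 57.7% of all genes. ATR, ATRIP, ETAA1 and TIPIN were lost, 4 of 10 against 23.8%, and 0 of 10 were gained, against 8.62%. ATM was the member kept. Of the 6 member peaks in KO minus UV, 5 overlapped no KO plus UV peak, beside 47.0% of all peaks in that list, and the single KO plus UV peak overlapped one, with 22.6% of that list lacking an overlap. No member peak in either KO list was under 120 bases, so leaving out narrower peaks could not change these counts. Behind KO plus UV stood 2 IP libraries, behind KO minus UV 3, and the part of that difference in these losses was not tested.

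Without UV, both genotypes were represented by 3 IP libraries and by lists of similar size, 13989 peaks in WT and 13852 in KO. Each had 5 members with a peak, but mostly other members. Whether a peak in WT alone depended on METTL3 was not tested. CHEK1, CHEK2 and RAD1 had a peak in WT alone, 3 of 10 against 16.4% of all genes, and ATR, ETAA1 and TIPIN in KO alone, 3 of 10 against 14.7%. ATM and ATRIP had a peak in both. On the side of the peaks, 4 of 6 in WT minus UV overlapped no KO minus UV peak, beside 32.1% of all peaks of that list, and 4 of 6 in KO minus UV overlapped no WT minus UV peak, beside 31.1%. Where the peaks were shared, the WT peak of ATM lay wholly within the KO peak and the KO peak of ATRIP wholly within the WT peak. With peaks of at least 120 bases, 2 WT minus UV member peaks were without an overlap in KO minus UV in place of 4, as both RAD1 peaks fell below that width.

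After UV, the genotypes shared no member. The 7 members with a WT plus UV peak (ATRIP, CHEK1, CHEK2, RAD1, HUS1, TIPIN and CDC25C) had none in KO plus UV, against 31.4% of all genes, and ATM had the reverse, against 5.68%. All 8 WT plus UV member peaks were without an overlap in KO plus UV, beside 51.0% of that list. The single KO plus UV member peak was without one in WT plus UV, beside 19.3%. With peaks of at least 120 bases the 7 members fell to 4, namely ATRIP, CHEK1, RAD1 and CDC25C. The lists came from 4 and 2 IP libraries, and what this contributed was not tested.

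**Figure D2:**
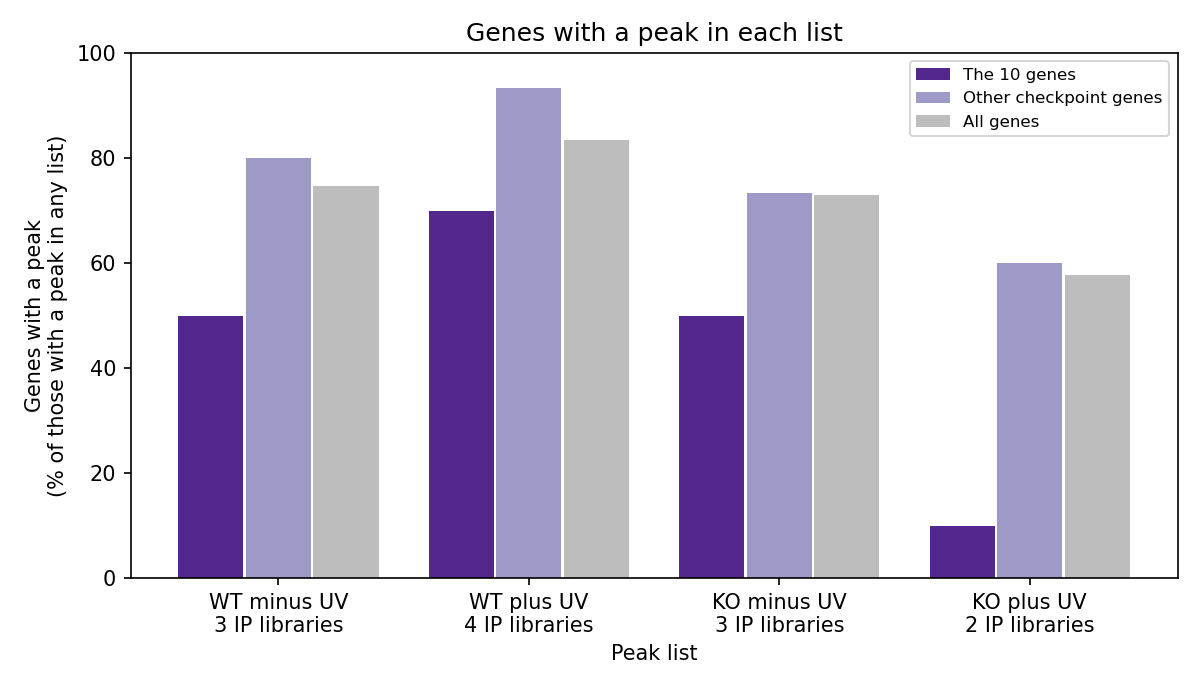
Percent of genes with a peak in each list, of those with a peak in any list, for the 10 genes, 30 other checkpoint genes and all 9560 genes; bars are counts of single lists and have no error. The 10 genes stand at 50.0, 70.0, 50.0 and 10.0% from left to right, the all-gene bars at 74.6, 83.4, 72.9 and 57.7%.

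Across the 4 lists, 0 of the 10 members had a peak in every list, whereas 41.2% of all genes did. Of the 30 other checkpoint genes with a peak, 14 were in every list. The members were chosen with earlier results of these data known, and what that choice contributed was not tested. There were 4 members in 1 list, 4 in 2 and 2 in 3, against 17.4%, 17.9% and 23.5% of all genes. No member had more than 2 peaks in a list. Of the 6638 genes with at most 2 peaks in any list, 32.2% were in all 4. Of those genes, 66.9% had a peak in unirradiated and 78.1% in irradiated WT cells, and 65.4% and 52.6% in KO cells. Peaks that overlapped across lists merged into 12 regions on the members. Of these, 5 were in 1 list, 5 in 2, 2 in 3 and 0 in 4. The most frequent region pattern among the members was both WT lists without KO, with 4 of 12 regions (CHEK1, CHEK2 and both of RAD1) against 7.90% of all 20811 regions. With peaks of at least 120 bases this count was 1, the CHEK1 region. Regions in KO minus UV alone were those of ATR and ETAA1 and the TIPIN region at the transcript start, 3 of 12 against 8.68%. Those of HUS1 and CDC25C were in WT plus UV alone, 2 of 12 against 10.8%. The remaining 3 were the second TIPIN region, with a pattern held by 4.91% of all regions, the ATRIP region, with 12.4%, and the ATM region, with 1.39%.

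The 21 member peaks were between 100 and 272 bases wide. In WT cells their median width was 156.5 bases without UV and 116.5 with UV, against 186 and 189 over all peaks of those lists. In KO cells it was 166 without UV and 148 for the single peak with UV, against 182 and 176. Below the median of their list lay 16 of the 21. Peaks under 120 bases numbered 2 of 6 in WT minus UV, on RAD1, and 4 of 8 in WT plus UV, on RAD1, CHEK2, HUS1 and TIPIN, against 11.8% and 9.30% of all peaks. In KO minus UV they numbered 0 of 6 and in KO plus UV 0 of 1, against 10.8% and 15.1%. The narrow member peaks were thus in the WT lists, and ATRIP was the one gene whose peaks were wider than the median in every list that held it.

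**Figure D3:**
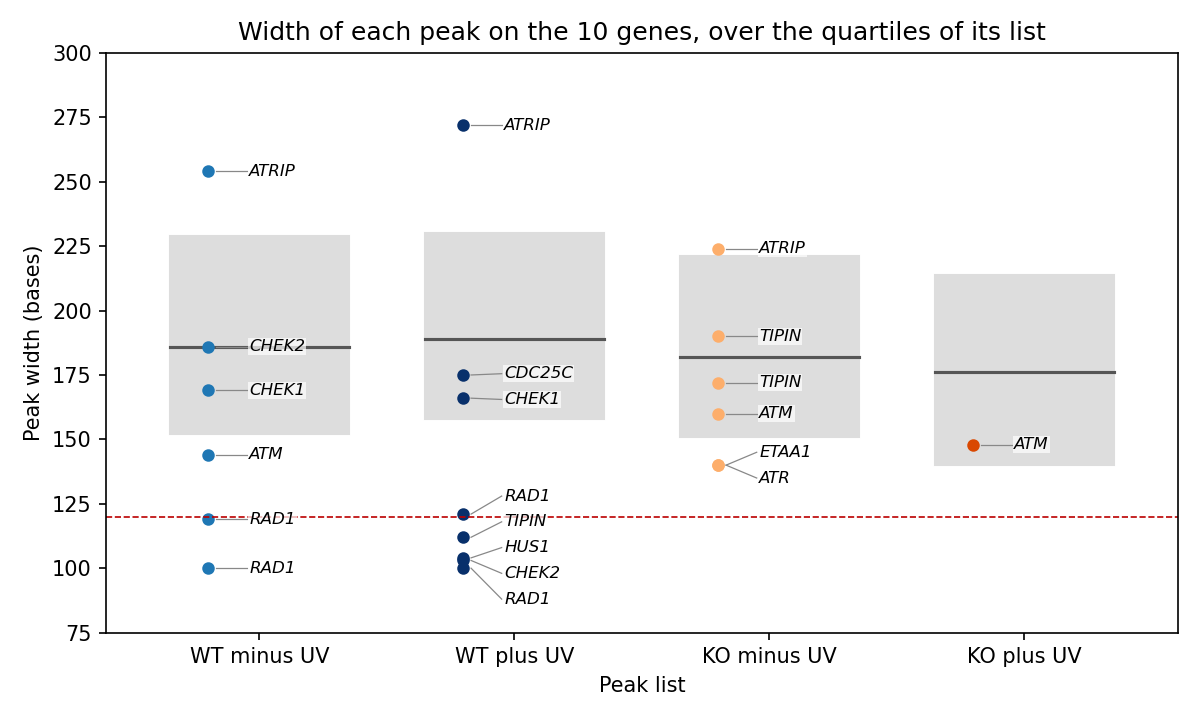
Width in bases of each of the 21 peaks on the 10 genes (points, with the gene's name) by peak list, over the interquartile range (grey box) and median (line) of all peaks of that list; the dashed line marks 120 bases. ATRIP lies at 254, 272 and 224 bases, above the box in the 3 lists that hold it, and the points below the dashed line belong to RAD1, CHEK2, HUS1 and TIPIN in the WT lists.

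The starts of the member peaks ranged from base 1, on TIPIN, to base 1741, on CDC25C. The median start of the member peaks lay at base 515.5 in WT cells without UV, 783.5 with UV and 799 in KO minus UV, against 1436, 1381 and 1501.5 over all peaks of those lists. With peaks of at least 120 bases the member value in irradiated WT cells was 1505. That is beyond the 1381 of the whole list, which was not recomputed at that width and includes narrower peaks. No common direction is given for the positions. Lengths and coding limits of the transcripts were not used here, so these positions are distances from the transcript start and are not placed in coding or untranslated sequence. Where a member had overlapping peaks in 2 lists, 11 pairs in all, the centres were 0 to 34 bases apart with a median of 11, against 12.5 over all 54825 overlapping pairs.

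The other genes of the pathway, 36 genes of the ATR and ATM response listed with earlier results of these data known, had a peak in shares nearer to those of all genes than the members did. The members were chosen with the same knowledge, and what the choice contributed to this difference was not tested. Of the 36 genes, 30 had a peak in any list, and RAD9A, RAD9B, HUS1B, PKMYT1, CDC25B and RAD50 had none. In WT cells 24 of the 30 carried a peak without UV and 28 with UV, or 80.0% and 93.3%, and in KO cells 22 and 18, or 73.3% and 60.0%. All 4 lists held a peak on 14 of the 30 (46.7%), beside the 41.2% of all genes. Without transcripts with a copy number, the 24, 28, 22 and 18 genes came to 22, 26, 21 and 16. The number in every list was not recounted in that way. In the order WT without UV, WT with UV, KO without UV, KO with UV, the median number of peaks over the 30 was 1, 2, 1 and 1, against 0.5, 1, 0.5 and 0 over the 10 members.

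Direct partners of the members differed in how many lists held them. TOPBP1, the activator of ATR, carried 1, 3, 3 and 2 peaks, and RAD17, which loads the clamp, 2, 2, 3 and 2. TIMELESS, the partner of TIPIN, carried 2, 2, 3 and 1 peaks, and CLSPN, the adaptor that brings CHEK1 to ATR, 1, 4, 6 and 1. Of the RPA subunits, which coat single-stranded DNA, RPA1 carried 1, 2, 2 and 1 peaks, RPA2 1, 1, 0 and 0 and RPA3 0, 1, 0 and 0. RHNO1, which binds the clamp, carried 1, 1, 0 and 1, CINP, which binds ATRIP, 0, 1, 0 and 0, and RAD9A none. The kinase PRKDC, a relative of ATM and ATR, carried 5, 5, 5 and 4 peaks. WEE1, which inhibits CDK1, carried 3, 3, 2 and 1, and CDC25A, a phosphatase of the same family as CDC25C, 1, 2, 1 and 2. Also in every list were TP53BP1, MRE11, PPM1D, TELO2, DBF4 and WDHD1.

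With UV in WT cells, 5 of the 30 other checkpoint genes with a peak were gained (RPA3, BRCA1, TTI1, TTI2 and CINP), against 17.4% of all genes. The ubiquitin ligase RNF8 was lost, 1 of 30 against 8.61%. In KO cells RHNO1 and MDC1 were gained, 2 of 30 against 8.62%. There, CDK1, NBN, BRCA1, RNF168, TTI2 and CDC7 were lost, 6 of 30 against 23.8%. MDC1 stood on a transcript with a copy number, and without such transcripts 1 gene was gained. BRCA1, with 0, 6, 3 and 0 peaks, and TTI2, a cofactor in the maturation of ATM and ATR, with 0, 1, 1 and 0, had the same presence over the lists as TIPIN. Without UV, RPA2, RHNO1, MDC1, RNF8, H2AX and NEK1 had a peak in WT alone. That was 6 of 30 against 16.4% of all genes, or 5 without transcripts with a copy number. CCNB1, BRCA1, TTI1 and TTI2 had a peak in KO alone, 4 of 30 against 14.7%. After UV the numbers were 11 of 30 in WT alone, against 31.4%, and 1, CCNB1, in KO alone, against 5.68%.

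Likeness was looked for among the other checkpoint genes present in the same lists as a member and was measured as the summed absolute difference in peak numbers. By it, CHEK1 and CHEK2 were most like RPA2 and NEK1, at a distance of 0, and RAD1 was most like H2AX, at 1. HUS1 and CDC25C were at 0 from RPA3 and CINP. ATRIP was at 0 from CDK1 and at 1 from RNF168, and TIPIN was at 1 from TTI2. For ATM, ATR and ETAA1, none of the other checkpoint genes had the same presence over the lists. Numbers this small coincide easily, and the likeness is over 4 lists.

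**Figure D4:**
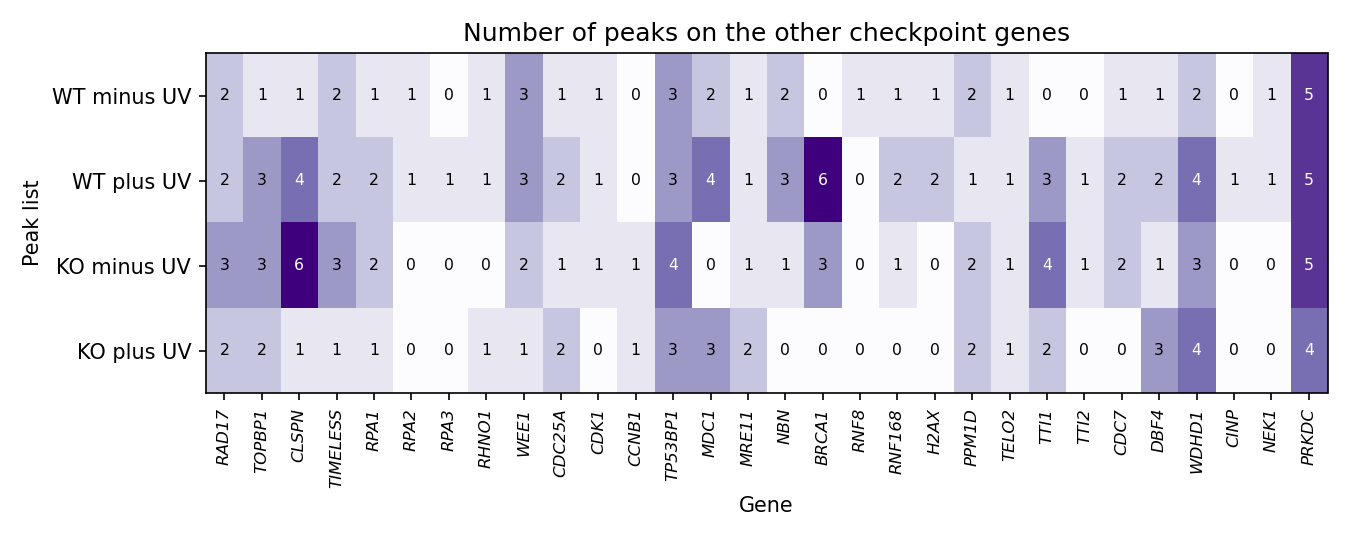
Number of peaks on each of the 30 other checkpoint genes with a peak in any list (columns) in the 4 peak lists (rows), printed in each cell and shaded by number. RAD17, TOPBP1, CLSPN, TIMELESS and PRKDC have peaks in each row, while RPA2, H2AX and NEK1 have them in the WT rows and none in the KO rows.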

How the data were processed

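The deposited files were 4 lists of m6A peaks, 1 per condition and described in the labels as belonging to all of its replicates. Per the labels and the deposited columns, a line names a RefSeq transcript and the first and last base of a peak along it; the values carry no signal or score (other), and 2 columns are blank. The submitters' processing notes name TopHat2 2.0.14 and build hg38, and the labels give reads of 50 bases. The calling of peaks and the use of inputs were not given in the sources used here. Depth is unknown.

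Accessions were matched to symbols through RefSeq (GRCh38.p14), and 9563 of 9674 transcripts matched. Peaks were shared when they overlapped by at least 1 base on the same transcript. Percentiles count ties by their midpoint. The search for overlaps was checked with simulated lists. Analyses used Python. No test was made, as a condition has 1 list. All 10 members are named whatever their values, with other checkpoint genes gained, lost, in every list or most alike in peak numbers. Members and lists were chosen with earlier results of these data known. Alternatives covered peak width, copy-numbered transcripts, overlap, merging and the KO plus UV list. Beside the 36 other checkpoint genes given, 1 gene of that list is not reported here.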

Additional observations from a re-analysis of the deposited data

Results flagged for a closer look

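The number of members with a peak moved in opposite directions with UV in the 2 genotypes: it rose from 5 to 7 in WT cells (a change of 2) and fell from 5 to 1 in KO cells (a change of -4), so that the KO change minus the WT change was -6. The number of member peaks moved from 6 to 8 in WT cells and from 6 to 1 in KO cells, and the same difference was -7. TIPIN went from 0 to 1 peak in WT cells and from 2 to 0 in KO cells, a difference of -3. Over all genes the share with a peak moved the same ways, from 74.6% to 83.4% in WT cells and from 72.9% to 57.7% in KO cells. With peaks of at least 120 bases the members with a peak went from 4 to 4 in WT cells and from 5 to 1 in KO cells, a difference of -4. Member peaks then gave -5, and TIPIN, with 0 peaks in WT cells, gave -2, so that no WT change was left in any of these counts. No member peak in the KO lists was under 120 bases, so the KO counts could not change with this setting. With 1 list per condition none of these differences was tested, and the 4 lists rest on 3, 4, 3 and 2 IP libraries.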

How the results depend on the processing

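Leaving out peaks under 120 bases kept 35 of 43 results within 1.5 times their value, or medians within their order-statistic intervals, and moved 8. Those intervals are wide: the median start of WT plus UV member peaks went from 783.5 to 1505 and was still within its own. Members with a peak in WT plus UV came to 4 in place of 7, members in WT minus UV alone against WT plus UV to 2, and member peaks of WT minus UV without an overlap to 2 against WT plus UV and 2 against KO minus UV. Members in WT plus UV alone against KO plus UV came to 4, and so did their peaks without an overlap. Member regions shared by the WT lists and absent from KO came to 1, and other checkpoint genes in WT minus UV alone against WT plus UV to 3 in place of 1. No member peak in the KO lists was under 120 bases, so member counts within and between those lists could not move. Without copy-numbered transcripts, 34 of 35 results stayed within 1.5 times, and other checkpoint genes in KO plus UV alone against KO minus UV came to 1 in place of 2. No member transcript had a copy number, so results on the members could not move there. No result moved with an overlap of at least 50% of the shorter peak (11 results), with peaks within 100 bases merged (19) or without the KO plus UV list (3). These settings could not move a member result. Every overlapping pair on a member shared more than 50% of the shorter peak, and no 2 peaks of a member in a list lay within 100 bases. The KO plus UV peak of ATM overlapped peaks in WT minus UV and KO minus UV, so leaving that list out could change none of the region counts. Leaving out a replicate could not be done, since each list covers all replicates of its condition. No paired analysis was possible because the lists carry no replicate values. The lists hold no depth, so a missing peak is no measure of absence of the mark.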
